A study of Mus musculus with 8 samples.

Results

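*Ostc*, *Cdc40*, *Rnf169*, *Camkmt* and *Taf6*, 5 genes that have been reported as promoter targets of the zinc finger protein ZBTB24, were followed through every library of an RNA-Seq series on mouse embryonic stem (ES) cells. They were taken by name from a list of reported targets, with earlier results of these data known, and are 5 of 43309 genes in the count table and 5 of 16816 genes that were tested. The cells were ES cells of the J1 line, from the 129SV strain, grown in serum on gelatin without feeder cells. The libraries fell into 4 groups of 2, labelled WT (*Zbtb24* wild type, 2lox/+) or KO (*Zbtb24* knockout, 1lox/1lox) and made from 1000 cells (about 10 ng of RNA, 10 cycles of PCR) or from 100 cells (about 1 ng of RNA, 18 cycles). Cells were lysed directly, and polyadenylated RNA was copied and amplified with the SMARTer Ultra Low RNA Kit before Nextera library construction. The design text speaks of 2 clones per genotype and the article of more, and the clone behind each library is not stated. The WT clones carried 1 loxP-flanked *Zbtb24* allele, so neither genotype was unmodified at the locus. Between 9666985 and 16686525 fragments per library were assigned to genes.

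ZBTB24 is one of the proteins whose loss in humans causes immunodeficiency, centromeric instability and facial anomalies (ICF) syndrome, in which DNA methylation is lost at pericentromeric repeats. It binds DNA through a row of C2H2 zinc fingers and is best known for activating *Cdca7*, another ICF gene, which encodes a partner of the chromatin remodeller HELLS. The 5 genes have unrelated functions. OSTC is an accessory subunit of the oligosaccharyltransferase that attaches N-linked glycans to proteins entering the endoplasmic reticulum, TAF6 is a histone-fold subunit of the general transcription factor TFIID, and CDC40 (PRP17) acts in the second step of pre-mRNA splicing. CAMKMT trimethylates a lysine of calmodulin, and RNF169 is a RING finger protein that binds ubiquitylated histones at DNA double-strand breaks.

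ZBTB24 has been described to bind a string of 8 letters, CAGGACCT, and both strands of the RefSeq promoter windows (GRCm38.p6, 250 bases before to 50 bases after each annotated start) were searched for it. No window was available for *Ostc*, so its promoter was not searched. In 3 of the 4 members with a window there were 2 matches each, and the matched sites are shown because they are what these 3 promoters share. Each is written 5′ to 3′ on the strand of its gene, in a stretch of 30 bases with the match in capitals (AGGTCCTG is the same string on the opposite strand), together with the site of the known target *Cdca7*.
Cdc40, chr10:40883286-40883315, minus strand: tttaatcaacgAGGTCCTGaaagttacaaa
Cdc40, chr10:40883123-40883152, minus strand: tgacaatctgaCAGGACCTgggagacgctg
Taf6, chr5:138187388-138187417, minus strand: gcgccttctgaAGGTCCTGacagctgggta
Taf6, chr5:138187222-138187251, minus strand: ttggcttctgcCAGGACCTactcctgtcag
Camkmt, chr17:85090631-85090660, plus strand: ccgggcgtcacAGGTCCTGacagggaagaa
Camkmt, chr17:85090646-85090675, plus strand: cctgacagggaagaagttggcAGGTCCTGa
Cdca7, chr2:72476119-72476148, plus strand: atcttagctggCAGGACCTgcgtcccggcg

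Positions are counted from +1 at the annotated RefSeq start. The matches of *Cdc40* began at -161 and 3 and those of *Camkmt* at 17 and 42. Those of the first of 2 annotated starts of *Taf6* began at -180 and -14. Both strands were used in *Cdc40* and *Taf6*, and both matches of *Camkmt* lay on the opposite strand. By the GENCODE annotation, the sites of *Cdc40* and *Camkmt* and the distal site of *Taf6* lie in untranslated sequence of the same genes, and the proximal site of *Taf6* lies in an intron of a longer *Taf6* transcript. The single *Cdca7* match, at -89, lies between genes. The window of *Rnf169* and that of the second *Taf6* start held no whole match, which says only that these letters are not in those windows. The edge of the window of the second *Taf6* start (138187402 to 138187701) cuts the distal site, which spans 138187399 to 138187406. That site, called distal from the first start, thus lies shortly downstream of the second start at 138187451. The letters were found in 653 of 32851 windows (1.99%), and 621 of 27025 genes (2.3%) had at least 1 match. Only 11 genes (0.041%) had 2 or more in a window, and 3 of these were *Cdc40*, *Camkmt* and *Taf6*. Since the string was described from sites that ZBTB24 binds, and the members were taken as bound promoters, this is a description of the members and not an independent result.

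**Figure D1:**
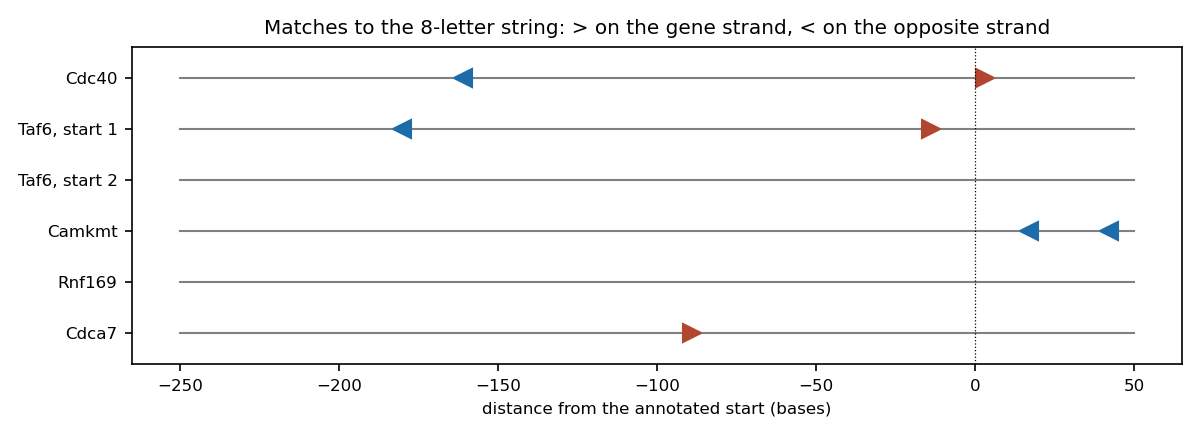
Positions of the 8-letter match relative to the annotated start (x axis, in bases) in the RefSeq windows of 4 members and *Cdca7*, 1 line per annotated start. Right-pointing marks are matches on the strand of the gene and left-pointing marks matches on the opposite strand. *Cdc40*, *Camkmt* and the first start of *Taf6* hold 2 matches each, *Cdca7* holds 1, and *Rnf169* and the second start of *Taf6* hold 0. The window edge of the second *Taf6* start cuts the distal site of the first. *Ostc* had no window.

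The targeted gene itself went against what a count would show if the whole transcript were lost. *Zbtb24* had 244 and 201 counts in the libraries labelled WT of 1000 cells, 197 and 269 in those of 100 cells, 526 and 545 in the libraries labelled KO of 1000 cells and 532 and 494 in those of 100 cells. A count over all exons does not check for a missing segment, so every direction below belongs to the labels, KO against WT. ES cell markers (8 of 8 in the table) summed to 5585.3 to 6792.5 cpm (the count scaled to the total of its library) over the 8 libraries. At 1000 cells the sum was 6744.4 and 6792.5 cpm in the libraries labelled KO and 5913.1 and 6007.2 cpm in those labelled WT, with 2 of the markers called lower and 5 higher, and at 100 cells 1 was called lower and 4 higher. Both libraries labelled KO of 100 cells stood apart by transcripts of brain cells. The 6 glial markers summed to 222.7 and 227.8 cpm there, against 9.7 to 11.8 cpm in the libraries labelled WT and 21.5 and 22.5 cpm in the libraries labelled KO of 1000 cells. *Aqp4* was at 0 in all 4 libraries of 1000 cells. Of the 5 neuronal markers, 1 was called lower and 2 higher at 1000 cells, and 1 lower and 4 higher at 100 cells. The lower one was *Stmn2* (log2 ratio -0.31 at 1000 cells and -0.47 at 100 cells), which supplied 333.1 to 499.3 cpm in every library. With it, the neuronal sum at 100 cells was 451.5 and 470.9 cpm in libraries labelled KO against 489.7 and 484.5 cpm in those labelled WT. *Snap25* was at 75 and 81.5 cpm in the libraries labelled KO of 100 cells and at 1.45 to 2.95 cpm elsewhere. Markers of fibroblasts (6 in the table) summed to 0.414 to 2.64 cpm and those of primitive endoderm (5) to 2.94 to 7.78 cpm over the 8 libraries. Those of trophoblast (4) summed to 36.5 and 37.6 cpm at 1000 cells and 30.4 and 51.5 cpm at 100 cells in the libraries labelled WT. The sum was higher in all libraries labelled KO, at 52.6 and 53.7 cpm and at 72.0 and 73.3 cpm. This was not a shared rise of the list. Only 2 of the 4 were tested, with 0 called lower and 1 higher at 1000 cells and 1 lower and 1 higher at 100 cells. *Col3a1* and *Lum* were at 0 outside the libraries labelled KO of 100 cells, *Foxa2* was at 0 in all libraries and *Cdx2* in those labelled KO. The comparison at 1000 cells does not use the 100-cell libraries and is given first for every gene. The part of the brain transcripts in the 100-cell values, and of the ES and trophoblast differences in either comparison, was not tested. In bulk samples, fewer cells expressing a gene and less RNA per cell cannot be told apart.

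Levels of the 5 genes spanned a wide range. Per kilobase of the longest annotated transcript, the mean level in libraries labelled WT of 1000 cells was 175.4 ± 10.6 FPKM for *Ostc*, 31.9 ± 2.98 for *Taf6*, 16.9 ± 1.13 for *Cdc40*, 2.74 ± 0.328 for *Camkmt* and 2.34 ± 0.0104 for *Rnf169* (SD, n = 2 libraries). In the 4 libraries labelled WT, the 3 upper genes did not overlap with each other or with the lower pair, and *Camkmt* (2.37 to 2.97 FPKM) and *Rnf169* (2.19 to 2.82 FPKM) overlapped. Without division by length, *Camkmt* (5.96 to 7.46 cpm) lay below *Rnf169* (15.7 to 20.2 cpm) in these libraries. The article describes coverage with this kit as biased toward the 3′ end, and the FPKM values were not corrected for that. In the libraries labelled KO, *Taf6* ranged from 7.15 to 10.8 FPKM and *Cdc40* from 5.82 to 8.06 FPKM and overlapped, whereas *Camkmt* (0.89 to 1.54 FPKM) lay below *Rnf169* (1.75 to 2.52 FPKM).

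The level of 4 of the 5 genes was lower in the libraries labelled KO at both inputs, by 1.87-fold to 3.16-fold at 1000 cells and by 2.49-fold to 3.49-fold at 100 cells, and *Rnf169* was not called at either. A gene was called when its Benjamini-Hochberg adjusted p from the quasi-likelihood test of edgeR was at most 0.05. Over all genes tested, 20.6% were called lower and 20.9% higher at 1000 cells, and 16.6% lower and 17.6% higher at 100 cells. At both inputs, 1553 genes (9.24%) were called lower. Calls in the lower direction made up 49.7% of all calls at 1000 cells, and 60.7% when libraries were scaled by their totals alone. The background at 100 cells moved from 5756 calls in both directions to 2102 to 9551 when 1 library was left out. The median log2 ratio was -1.17 over the members and 0.00 over all genes at 1000 cells, and -1.35 and 0.00 at 100 cells. The same 4 members had every library labelled KO below every library labelled WT, a pattern seen in 13.9% of all genes tested. Replicates are described as clones, but with 2 libraries per group the p-values measure the spread between these libraries only.

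**Figure D2:**
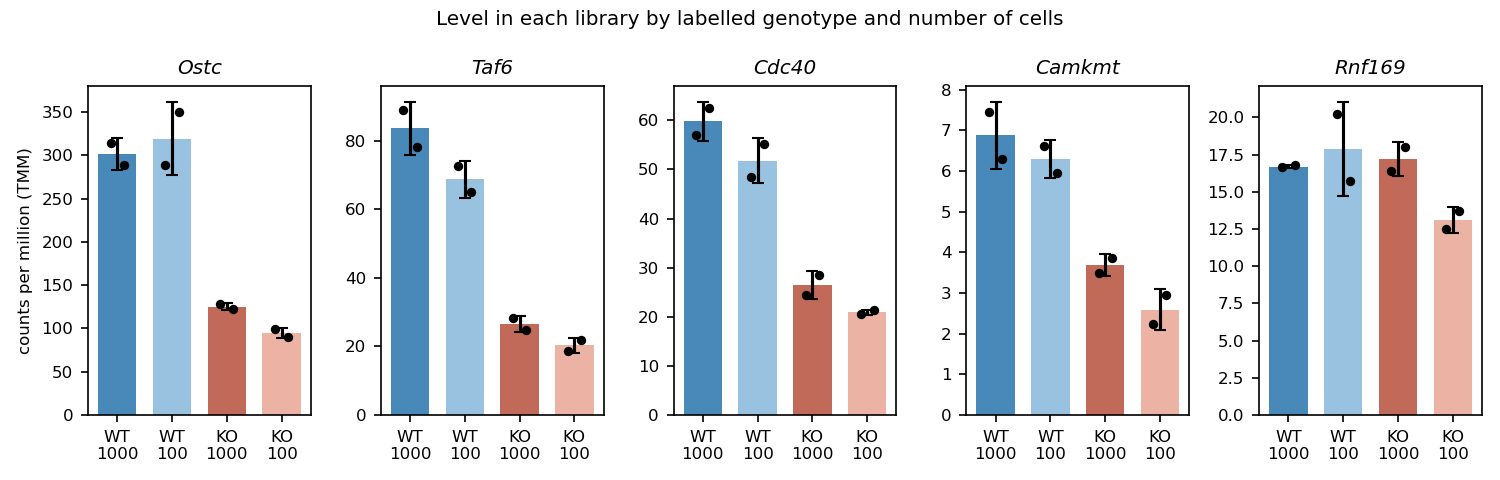
Level in cpm (y axis, scaled by the trimmed mean of M values, from 0) of each gene in the 4 groups. Points are the 2 libraries of a group, bars their mean and whiskers the SD. For *Ostc*, *Taf6*, *Cdc40* and *Camkmt* all 4 libraries labelled KO lie below all 4 labelled WT, and for *Rnf169* the ranges of 12.5 to 18.0 and 15.7 to 20.2 cpm overlap.

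*Ostc* (ENSMUSG00000041084.7, chromosome 3, 130695912 to 130709444 on the minus strand of GRCm38) was the most abundant of the 5. It was at 314.5 and 288.8 cpm in the libraries labelled WT of 1000 cells and at 127.7 and 122.2 cpm in those labelled KO. At 100 cells it was at 289.3 and 349.6 cpm in libraries labelled WT and at 98.9 and 90.2 cpm in those labelled KO. The genotypes did not overlap at either input. *Ostc* was 2.42-fold lower at 1000 cells (log2 ratio -1.27, SE 0.065, edgeR adjusted p = 1.86e-15) and 3.48-fold lower at 100 cells (log2 ratio -1.80, SE 0.12, edgeR adjusted p = 2.84e-05). The gene shares 0.26% of its windows of 50 bp with another annotated gene.

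*Taf6* (ENSMUSG00000036980.9, chromosome 5, 138178617 to 138187451, minus strand) had the largest fall of the 5 at 1000 cells. It was at 89.1 and 78.1 cpm in the libraries labelled WT of 1000 cells and at 28.2 and 24.9 cpm in those labelled KO, and at 100 cells it was at 72.6 and 65.0 cpm against 18.7 and 21.9 cpm. All libraries labelled KO lay far below all labelled WT. The fall was 3.16-fold at 1000 cells (log2 ratio -1.66, SE 0.093, edgeR adjusted p = 1.57e-14) and 3.49-fold at 100 cells (log2 ratio -1.80, SE 0.14, edgeR adjusted p = 4.76e-05). *Taf6* overlaps 1185 bp of the exons of *Ap4m1* on the opposite strand and shares 21.98% of its windows with other genes. Counting ignored the strand and discarded fragments that matched both, so both genes are undercounted there. *Ap4m1*, an adaptor complex subunit, was not called at either input (log2 ratio -0.07, edgeR adjusted p = 0.794 at 1000 cells and -0.37, edgeR adjusted p = 0.252 at 100 cells).

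*Cdc40* (ENSMUSG00000038446.7, chromosome 10, 40831621 to 40883311, minus strand) was at 57.0 and 62.6 cpm in the libraries labelled WT of 1000 cells and at 24.5 and 28.5 cpm in those labelled KO. At 100 cells the values were 48.5 and 55.1 cpm against 20.6 and 21.3 cpm. No library labelled KO reached the lowest library labelled WT. The gene was 2.25-fold lower at 1000 cells (log2 ratio -1.17, SE 0.097, edgeR adjusted p = 5.97e-11) and 2.55-fold lower at 100 cells (log2 ratio -1.35, SE 0.13, edgeR adjusted p = 0.000162). *Zbtb24* itself lies on the same chromosome, 567.1 kb from *Cdc40* and with 3 other tested protein-coding genes between them.

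*Camkmt* (ENSMUSG00000071037.5, chromosome 17, 85090552 to 85458588, plus strand) was the least counted member, with 30 to 129 counts per library. It was at 7.46 and 6.30 cpm in the libraries labelled WT of 1000 cells against 3.49 and 3.87 cpm in those labelled KO, and at 6.62 and 5.96 cpm against 2.24 and 2.94 cpm at 100 cells. The groups did not overlap. It was 1.87-fold lower at 1000 cells (log2 ratio -0.91, SE 0.21, edgeR adjusted p = 0.000929) and 2.49-fold lower at 100 cells (log2 ratio -1.32, SE 0.27, edgeR adjusted p = 0.00604). Without replicate 1 of the libraries labelled KO of 100 cells the ratio was -1.13 and the call was lost (edgeR adjusted p = 0.109), while the call at 1000 cells held without any 1 library.

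*Rnf169* (ENSMUSG00000058761.4, chromosome 7, 99920254 to 99980448, minus strand) stood apart from the other 4. Its libraries of 1000 cells were at 16.7 and 16.8 cpm with the WT label and 16.4 and 18.0 cpm with the KO label, which overlap. Its libraries of 100 cells were at 20.2 and 15.7 cpm against 12.5 and 13.7 cpm, which do not overlap, but the gap between the groups is smaller than that between the 2 libraries labelled WT. *Rnf169* had a log2 ratio of 0.04 at 1000 cells (95% interval -0.21 to 0.30, edgeR adjusted p = 0.817) and -0.49 at 100 cells (95% interval -0.90 to -0.08, edgeR adjusted p = 0.065). The interval at 1000 cells does not reach a fall of the size seen in any of the other 4 members. At 100 cells the call depended on the fit, with an edgeR adjusted p of 0.0303 in 1 fit of all 8 libraries and 8.64e-05 without replicate 2 of the libraries labelled WT.

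A gene on the other strand starts close to 3 of the members, and 2 of these partners fell while 1 was not called. Distances between starts were taken from the outermost GENCODE starts, whereas the site positions above are from the RefSeq starts. The 2 kinds of start differ for *Cdc40* and *Camkmt*, and for *Taf6* the GENCODE start is the second one, at 138187451. The distal *Cdc40* site, at 40883297 to 40883304, lies shortly downstream of the GENCODE start of *Cdc40* at 40883311. *Cnpy4*, which encodes a chaperone-like protein of the secretory pathway, starts 34 bp from *Taf6*, and the distal site of *Taf6* printed above lies in its window too. It was at 16.3 and 16.8 cpm in the libraries labelled WT of 1000 cells and at 8.70 and 6.02 cpm in those labelled KO, and at 100 cells it was at 17.8 and 14.9 cpm against 2.01 and 2.34 cpm. It fell at 1000 cells (log2 ratio -1.18, SE 0.16, edgeR adjusted p = 6.16e-07) and at 100 cells (log2 ratio -2.94, SE 0.23, edgeR adjusted p = 5.53e-05). *Prepl*, a serine peptidase-like gene that starts 311 bp from *Camkmt* and had no match in its window, was at 31.4 and 30.6 cpm against 20.1 and 23.5 cpm at 1000 cells and at 32.1 and 34.1 cpm against 25.8 and 24.6 cpm at 100 cells. It fell less, by a log2 ratio of -0.50 (edgeR adjusted p = 0.000374) and -0.44 (edgeR adjusted p = 0.0275). *Wasf1*, an actin regulator that starts 164 bp from *Cdc40* and whose window holds the distal *Cdc40* site, was at 33.9 and 31.6 cpm against 29.4 and 30 cpm at 1000 cells and at 42.6 and 38.7 cpm against 50.4 and 43.8 cpm at 100 cells. *Wasf1* was not called at 1000 cells (log2 ratio -0.15, 95% interval -0.35 to 0.06, edgeR adjusted p = 0.257) or at 100 cells (0.17, 95% interval -0.12 to 0.46, edgeR adjusted p = 0.34). A match in the partner's own window was thus found both for *Cnpy4*, which fell, and for *Wasf1*, which was not called. The difference between member and partner was not tested.

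**Figure D3:**
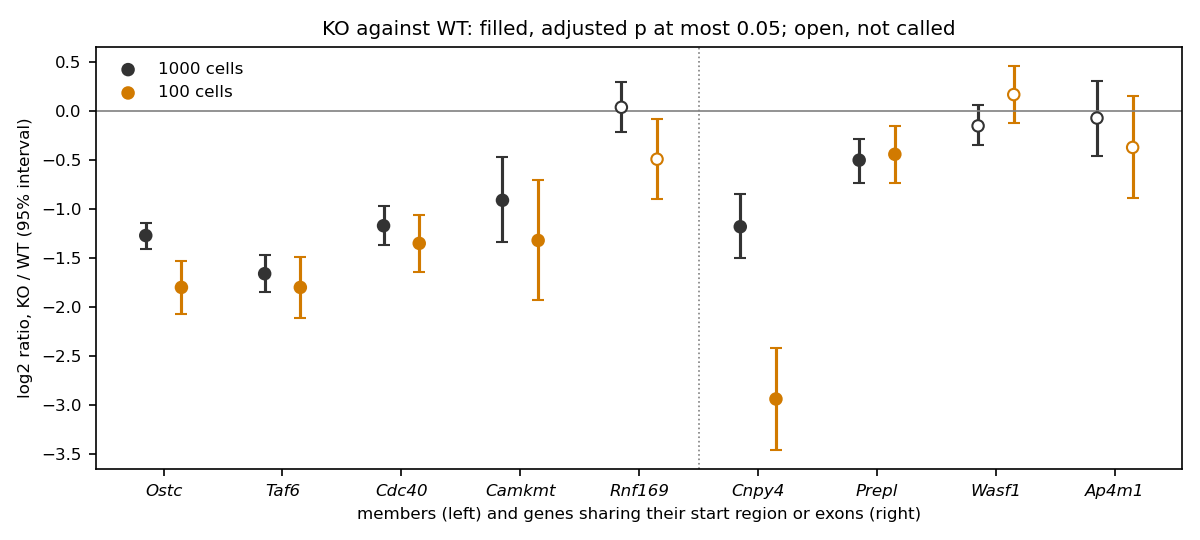
Log2 ratio of the libraries labelled KO to those labelled WT (y axis) with its 95% interval for the 5 members (left) and 4 genes that share their start region or exons (right), at 1000 cells (black) and 100 cells (orange). Filled points had an edgeR adjusted p of at most 0.05. *Cnpy4* and *Prepl* are filled at both inputs, and *Rnf169*, *Wasf1* and *Ap4m1* are open at both.

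Among the nearest genes on the chromosome, calls in both directions were found. The shares over all genes tested were 20.6% lower and 20.9% higher at 1000 cells, and 16.6% and 17.6% at 100 cells. Of the 10 nearest tested protein-coding genes of *Ostc* (5 on each side), 0 were called lower and 3 higher at 1000 cells, with a median log2 ratio of 0.13 and a lowest value of -0.20, all above *Ostc*. Of the neighbours of *Taf6*, 2 fell and 1 rose at 1000 cells (median -0.08). Those that fell were *Cnpy4* and *Lamtor4*, a lysosomal adaptor subunit (log2 ratio -0.31, edgeR adjusted p = 0.00635). For *Cdc40*, 2 fell and 4 rose (median 0.04), and the lowly expressed *Ak9* (log2 ratio -1.56, edgeR adjusted p = 0.0308) was the only neighbour below it. For *Camkmt*, 2 fell and 3 rose (median 0.18), and for *Rnf169*, 0 fell and 1 rose (median 0.04). At 100 cells, 0 of the neighbours of *Ostc* fell and 6 rose, against 2 and 1 for *Taf6*, 2 and 2 for *Cdc40*, 3 and 2 for *Camkmt* and 2 and 3 for *Rnf169*, and the medians of the 5 neighbourhoods ran from -0.28 to 0.43. Over the chromosomes of the members (387 to 586 genes of at least 10 cpm each), the median log2 ratio ran from -0.06 to 0.08 at 1000 cells and from -0.14 to -0.03 at 100 cells.

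**Figure D4:**
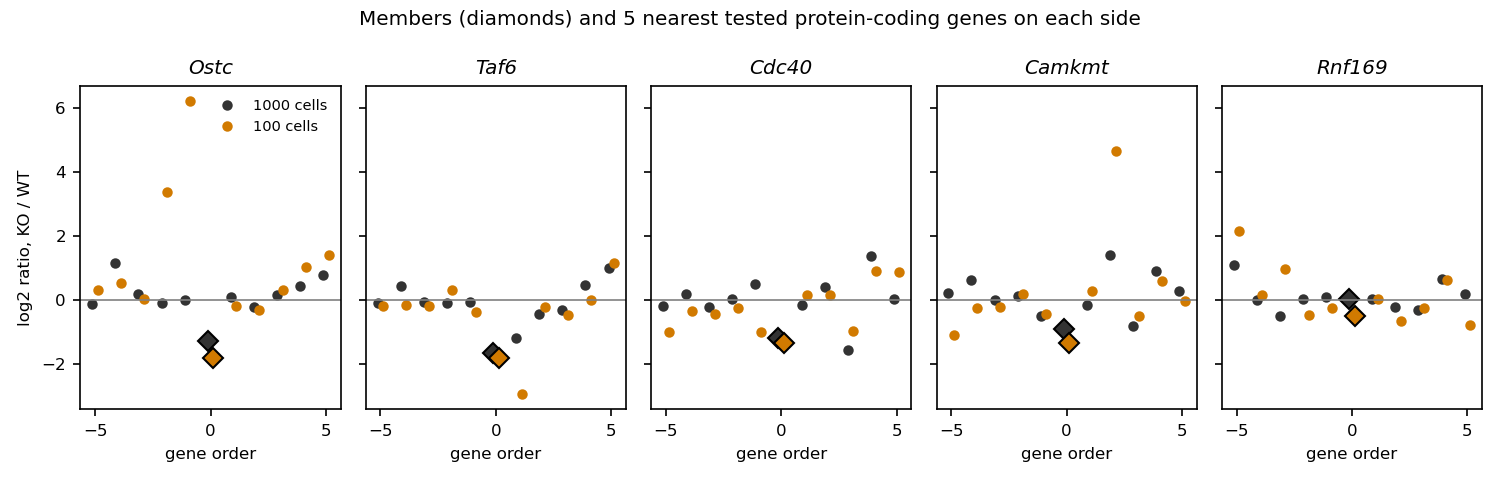
Log2 ratio of the libraries labelled KO to those labelled WT (y axis) for each member (diamonds, at 0) and the 5 nearest tested protein-coding genes on each side in chromosomal order (x axis), at 1000 cells (black) and 100 cells (orange). No neighbour of *Ostc* or *Camkmt* lies below the member at either input, and the neighbour of *Taf6* at -1.18 and -2.94 is *Cnpy4*.

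Other genes tied to ZBTB24 were examined beside the members. *Cdca7* was at 162.8 and 160.1 cpm in the libraries labelled WT of 1000 cells and at 47.5 and 49.1 cpm in those labelled KO, and fell at 1000 cells (log2 ratio -1.74, edgeR adjusted p = 2.09e-17) and at 100 cells (-1.46, edgeR adjusted p = 4.40e-05). *Axin2*, a Wnt feedback gene, fell from 25 to 46 counts per library labelled WT to 3 to 7 counts, with log2 ratios of -2.40 and -2.87 (edgeR adjusted p = 0.000431 and 0.0024). *Dnmt3b*, a de novo DNA methyltransferase and ICF gene, fell with log2 ratios of -2.17 and -1.34, and *Hells* with -0.26 and -0.38 (edgeR adjusted p = 0.000481 and 0.0237). The call of *Hells* at 100 cells was lost without either library labelled KO (edgeR adjusted p = 0.317 and 0.427). At 1000 cells, the ratio of *Cdca7* lay inside the 95% interval of *Taf6* (-1.85 to -1.47). The ratios of *Ostc*, *Cdc40* and *Camkmt* lay between those of *Hells* and *Cdca7*. At 100 cells, the ratio of *Cdca7* lay outside the interval of *Taf6* (-2.11 to -1.49). There *Ostc* (-1.80) lay below *Cdca7*, and *Cdc40* (-1.35) and *Camkmt* (-1.32) lay between *Hells* and *Cdca7*.

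Among the other genes of the members' complexes and pathways, calls were made in both directions at 1000 cells. Beside all list counts here and below stand the shares over all genes tested. These were 20.6% lower and 20.9% higher at 1000 cells, and 16.6% and 17.6% at 100 cells. The list counts at 100 cells moved with the library left out, in 1 case from 4 to between 1 and 11 of 15 TFIID genes. Of 11 other oligosaccharyltransferase genes, 2 fell and 2 rose at 1000 cells (median log2 ratio 0.09) and 0 were called at 100 cells by edgeR (median -0.22), where 3 had an unadjusted p under 0.05 and DESeq2 called 0. *Rpn1* fell (-0.43, edgeR adjusted p = 2.94e-06) and the small subunit gene *Tmem258* rose (0.44, edgeR adjusted p = 2.72e-06) at 1000 cells, both far from the -1.27 of *Ostc*. Of 15 TFIID genes tested, 3 fell and 3 rose at 1000 cells (median -0.03) and 3 fell and 1 rose at 100 cells (median -0.18). *Taf8*, which pairs with TAF10, fell at both inputs (-0.34, edgeR adjusted p = 0.00697 and -0.61, edgeR adjusted p = 0.00964), and *Taf2* rose at both (0.26, edgeR adjusted p = 0.00804 and 0.74, edgeR adjusted p = 0.00149). The *Taf6* paralogue *Taf6l*, whose protein takes the place of TAF6 in the SAGA coactivator, rose at 1000 cells (0.32, edgeR adjusted p = 0.00767) and was not called at 100 cells (0.21, edgeR adjusted p = 0.221).

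Of 16 genes of the second splicing step and the PRP19 complex, 5 fell and 4 rose at 1000 cells (median -0.03) and 0 fell and 3 rose at 100 cells (median 0.12). *Slu7*, which like CDC40 acts in the second step, fell at 1000 cells (-0.46, edgeR adjusted p = 1.01e-05) and was at -0.11 at 100 cells (edgeR adjusted p = 0.529), while *Cdc5l* rose at both (0.44, edgeR adjusted p = 8.41e-07 and 0.46, edgeR adjusted p = 0.00859). *Dhx38*, a second-step factor as well, was at -0.85 at 1000 cells (edgeR adjusted p = 3.50e-08) and at 0.41 at 100 cells (edgeR adjusted p = 0.0356). Of 10 calmodulin and lysine methyltransferase genes tested, 1 fell and 6 rose at 1000 cells (median 0.33) and 1 fell and 2 rose at 100 cells (median 0.16). *Calm2*, one of the genes for the substrate of CAMKMT, rose at 1000 cells (0.56, edgeR adjusted p = 1.24e-09) and was not called at 100 cells (0.19, edgeR adjusted p = 0.293). Of 12 genes of ubiquitin signalling at DNA breaks, 4 fell and 1 rose at 1000 cells (median -0.17), and 1 fell and 0 rose at 100 cells (median -0.22). *Rnf168*, which writes the ubiquitin mark that RNF169 reads, fell at 1000 cells (-0.79, edgeR adjusted p = 8.64e-07) and was at -0.24 at 100 cells (edgeR adjusted p = 0.216).

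**Figure D5:**
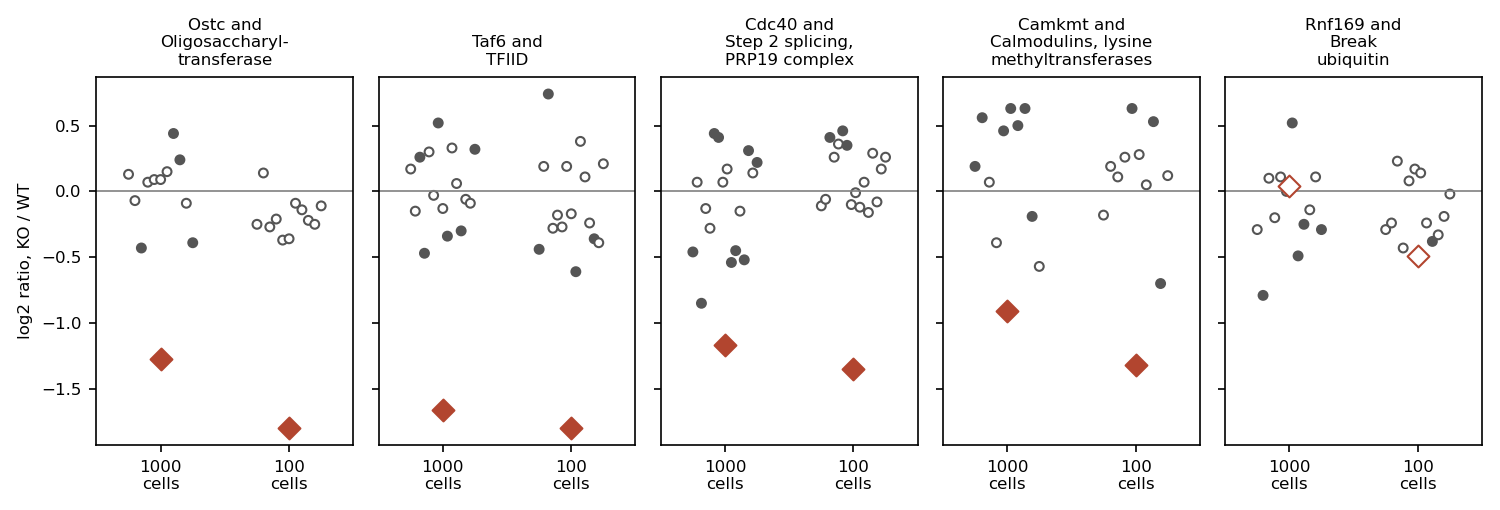
Log2 ratio of the libraries labelled KO to those labelled WT (y axis) for each member (red diamonds) and the other tested genes of its complex or pathway (grey circles), at 1000 and 100 cells. Filled symbols had an edgeR adjusted p of at most 0.05. *Ostc*, *Taf6*, *Cdc40* and *Camkmt* lie below every other gene of their list at both inputs, and *Rnf169* does not at 1000 cells.

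Genes with and without the 8 letters were called lower at similar shares. Of 265 tested genes with at least 1 match in a promoter window, 21.9% fell at 1000 cells and 17.4% at 100 cells, against 21.2% and 16.9% of 11510 tested genes with a window and no match. Without the 3 members, the shares were 21.0% and 16.4% of 262 genes. Of the 11 genes with 2 or more matches, 7 were tested, and besides *Cdc40*, *Camkmt* and *Taf6* they were *Mad2l1*, *Tbxa2r*, *Tc2n* and *Zfp57*. At 1000 cells, *Zfp57* fell (log2 ratio -0.41, edgeR adjusted p = 5.41e-05), *Mad2l1* rose (0.22, edgeR adjusted p = 0.00494), and *Tc2n* (-0.22) and *Tbxa2r* (0.09) were not called. At 100 cells, *Tc2n* fell (-1.41, edgeR adjusted p = 0.0248), and *Zfp57* (0.02), *Mad2l1* (-0.26) and *Tbxa2r* (1.82) were not called.

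With 100 against 1000 cells, 0 of 5 members were called in the libraries labelled WT by edgeR, DESeq2 or limma-voom, and the log2 ratios ran from -0.30 for *Taf6* to 0.08 for *Rnf169*. Only *Taf6* had an unadjusted p under 0.05 (0.0406, edgeR adjusted p = 0.378), and 0.678% of all genes were called lower and 0.149% higher. In the libraries labelled KO, 4 of 5 were called lower at 100 cells, where 24.8% of all genes were called lower and 27.3% higher. The log2 ratios were -0.40 for *Ostc* (edgeR adjusted p = 3.26e-06), -0.38 for *Taf6* (edgeR adjusted p = 0.00314), -0.34 for *Cdc40* (edgeR adjusted p = 0.00627) and -0.39 for *Rnf169* (edgeR adjusted p = 0.0084), and *Camkmt* was at -0.51 (edgeR adjusted p = 0.0892). DESeq2 made 1 of these calls, that of *Ostc*, and without replicate 1 of the 100-cell libraries edgeR also made 1. The call of *Rnf169* was also lost after thinning all libraries to the smallest total (edgeR adjusted p = 0.0502) and in 1 fit of all 8 libraries (0.0568). The summed glial markers were at 222.7 and 227.8 cpm in these 100-cell libraries against 21.5 and 22.5 cpm in those of 1000 cells, so that input, PCR cycles and the brain transcripts cannot be told apart here.

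The KO to WT ratios at the 2 inputs share no library, but whether they share clones is not stated. These ratios were compared by the interaction of genotype and cell number in a fit of all 8 libraries, taken as independent. The ratios of that fit differ slightly from those of the separate fits above (-1.27 and -1.76 for *Ostc*). This difference in log2 ratio (100 minus 1000 cells) was -0.48 for *Ostc* (SE 0.14, edgeR adjusted p = 0.033), the only member past the threshold, where 7.05% of all genes were called lower and 9.28% higher. It was -0.14 for *Cdc40* (95% interval -0.49 to 0.22), -0.10 for *Taf6* (-0.46 to 0.26), -0.37 for *Camkmt* (-1.08 to 0.34) and -0.48 for *Rnf169* (-0.93 to -0.03, edgeR adjusted p = 0.132). The partner *Cnpy4* differed more, by -1.72 (SE 0.30, edgeR adjusted p = 0.00278). The call of *Ostc* was lost without any 1 of 6 libraries, and the edgeR adjusted p was then 0.0758 to 0.175.

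Over the 8 libraries, the log2(cpm + 1) values of *Ostc*, *Cdc40*, *Camkmt* and *Taf6* had a Pearson r of 0.95 to 0.977 with each other, and *Rnf169* had an r of 0.565 to 0.712 with them. The 8 points share 4 groups and 2 genotypes, so a gene that differs by genotype has a high r with any other that does. Among 8101 protein-coding genes whose mean reached 10 cpm, the 3 most alike were *Eps8*, *Rpl10l* and *Irgm1* for *Ostc* (r = 0.996 to 0.997), *Vps36*, *Plp2* and *Parp9* for *Cdc40* (0.991 to 0.997), and *Mgme1*, *Slc25a38* and *Trmo* for *Taf6* (0.994 to 0.995). For *Camkmt* they were *Zfp819*, *Vangl1* and *Gm14412* (0.988 to 0.993). All of these fell in the libraries labelled KO at both inputs. For *Rnf169* they were *Zfp944*, *Arhgap42* and *Zfp97* (0.976 to 0.992), none of which was called at 1000 cells. At 100 cells *Arhgap42* (log2 ratio -0.78, edgeR adjusted p = 0.0204) and *Zfp97* (-0.65, edgeR adjusted p = 0.0154) were called lower. *Zfp944* was not called there (-0.52, edgeR adjusted p = 0.0515).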

How the data were processed

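The deposited table holds raw fragment counts per gene for 8 libraries, and 0 columns were left unused. The authors removed ribosomal reads with Bowtie2 2.1.0, mapped reads to mm10 with TopHat2 2.0.10 and counted with HTSeq 0.6.1 (union mode, strand ignored) over GENCODE M4 genes, discarding fragments that matched several genes or positions. CASAVA 1.8.2 is named in the submitters' processing notes. Identifiers were matched without version to GENCODE M21 on GRCm38 (42425 of 43309 found). Promoter sequences are from RefSeq GRCm38.p6.

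The 16816 genes that reached 10 counts in any library were fitted with edgeR 4.0.16 (R 4.3.3, quasi-likelihood test) after scaling by the trimmed mean of M values (TMM), on the 4 libraries of each comparison and on all 8 for the interaction. Tests were two-sided and adjusted by Benjamini-Hochberg over all tested genes. The SE was taken as the log2 ratio over the square root of its F statistic. Member cpm use TMM-scaled totals and marker sums use plain totals. FPKM is TMM-scaled cpm per kilobase of the longest transcript. The script was tested on simulated data. Alternatives were other scalings, DESeq2 1.42.0, limma-voom 3.58.1, other filters, thinning, 1 fit of all 8 libraries, a replicate block and each library left out.

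The 5 members and all lists were chosen with earlier results of these data known. Named genes were the members, lists of genes tied to ZBTB24 and of the members' complexes and pathways, start-region partners, the nearest 5 genes on each side, the 3 genes most alike and the genes with 2 matches. Of the lists' genes, *Antkmt* was not matched, *Taf4a* is *Taf4*, and *Taf9* was not tested.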

Additional observations from a re-analysis of the deposited data

Results flagged for a closer look

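*Ostc* was flagged because its KO to WT ratio differed between the inputs. The interaction of genotype and cell number was -0.48 on the log2 scale in the fit of all 8 libraries (edgeR adjusted p = 0.033, n = 2 libraries per group), in which the ratio was -1.27 at 1000 cells and -1.76 at 100 cells. *Ostc* was lower in both libraries labelled KO of 100 cells than in both of 1000 cells. The same 100-cell libraries held summed glial markers of 222.7 and 227.8 cpm, and the part of these transcripts in the difference was not tested.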

How the results depend on the processing

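At 1000 cells, the count of members called lower was 4 under all 13 alternatives. At 100 cells it was 4 in the main comparison and 3 to 5 when 1 library was left out, with *Camkmt* lost without replicate 1 of the libraries labelled KO and *Rnf169* gained without replicate 2 of those labelled WT. It was 5 in 1 fit of all 8 libraries. The ratio of *Rnf169* at 1000 cells changed sign with scaling by library totals (-0.04), after thinning (-0.01) and among the libraries left out in turn (-0.03 to 0.11), and it was not called under any of these. For 100 against 1000 cells in the libraries labelled WT, leaving out 1 library gave 0 to 1 members called lower (*Taf6* without replicate 1 of 100 cells), log2 ratios of *Ostc* from -0.05 to 0.18 and of *Rnf169* from -0.13 to 0.29. In the libraries labelled KO, DESeq2 called 1 member in place of 4, thinning and 1 fit of all 8 libraries each called 3 (without *Rnf169*), and leaving out 1 library gave 1 to 4. In the interaction, the call of *Ostc* was lost after thinning (0 members, edgeR adjusted p = 0.0541), leaving out 1 library gave 0 to 2 members, and the value of *Taf6* ran from -0.22 to 0.01. The cause of these changes was not tested.

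With the replicate block, *Rnf169* was called at 100 cells (log2 ratio -0.48, edgeR adjusted p = 0.0394) and the members' other calls were as without it. Replicate numbers are not stated to mark a shared clone or day, each comparison has 2 pairs, and the deviations of same-numbered libraries had a correlation of 0.154 at 1000 cells and 0.17 at 100 cells between genotypes, and -0.124 (labelled WT) and -0.038 (labelled KO) between inputs. Crossed numbers, added after seeing the data for the WT pair, gave 512 calls over all genes, against 285 with the replicate block and 139 without.

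Over all genes, leaving out 1 library gave 2102 to 9551 calls at 100 cells (5756 with all), 6 to 2631 for input in the libraries labelled WT (139) and 727 to 5635 for the interaction (2745). For WT input, other settings gave 79 (library totals), 212 (DESeq2), 463 (no filter beyond 1 count), 33 (thinned) and 676 (1 fit of all 8), and for KO input DESeq2 gave 5641 against 8753. The lists' counts at 100 cells moved likewise, from 0 to 8 of 11 oligosaccharyltransferase genes, 0 to 10 of 16 splicing genes, 0 to 7 of 12 DNA break genes, 0 to 6 of 10 calmodulin and methyltransferase genes and 1 to 11 of 15 TFIID genes. Of the 5 genes tied to ZBTB24, 4 were called at 100 cells with no filter beyond 1 count (*Hells*, edgeR adjusted p = 0.0543) and without either library labelled KO, and 4 at both inputs where every library had to hold 10 counts, since *Axin2* was then not tested. Thinning to the smallest total, which lowers depth, kept the calls of *Camkmt* (30 to 129 counts per library) at 1000 and 100 cells (edgeR adjusted p = 0.00475 and 0.0104).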
